A study of Homo sapiens with 9 samples.

Results

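The neural transcription factors described here are 9 genes, PAX6, SOX1, SOX3, NEUROG1, NEUROG2, NEUROD1, ZIC2, OTX2 and MEIS2, chosen by name as factors known to act when cells take a neural fate. Every probe that the array files assign to one of these symbols was taken, which gave 9 of the 34623 gene names on the array and 12 of its 42405 non-control probes. PAX6 had 4 probes and each of the other genes had 1. Of the 12 member probes, 9 from 7 genes were bright enough to be tested, out of 29134 tested probes, and the probes of SOX1 and NEUROD1 and 1 of the PAX6 probes were not.

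The study used NT2 cells (NTERA-2), a human embryonal carcinoma line that retinoic acid drives towards a neuronal fate. All cells were kept in retinoic acid for 4 days (96 h), either without an organophosphate (control), with 1 µM paraoxon or with 5 µM mipafox, so the controls carried the retinoic acid as well. Paraoxon is the active form of the insecticide parathion and inhibits acetylcholinesterase, and mipafox is known for causing a delayed neuropathy and also inhibits neuropathy target esterase. Each treatment had 3 one-colour arrays, lettered A, B and C, and the comparison asked whether either compound changed gene expression early in differentiation. No array of cells without retinoic acid was analysed here, so the response to retinoic acid itself was not measured, and a single cell line and a single time limit what the values stand for.

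In the neural lineage these factors act in an order that is well known from embryos. SOX1 and SOX3, with their relative SOX2, belong to the SOXB1 family that keeps neural progenitors undifferentiated, and PAX6, ZIC2 and OTX2 pattern the neural plate, the eye and the forebrain. NEUROG1 and NEUROG2 are basic helix-loop-helix proneural factors that commit progenitors to become neurons, NEUROD1 acts after them in postmitotic neurons, and MEIS2 is a TALE-class homeodomain protein that works with PBX and HOX proteins and is a known target of retinoic acid.

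The array reads each gene through probes of 60 bases, so a probe's place decides which transcripts it can see. On hg19 the PAX6 probes all lay on the minus strand of chromosome 11, in transcript order A_33_P3234303 at chr11:31832932-31832991, A_33_P3306267 at chr11:31822278-31822337, A_33_P3330149 at chr11:31810580-31810639 and A_33_P3665346 at chr11:31806397-31806456. A_33_P3234303, the most upstream, was designed against an Ensembl transcript (ENST00000379123), while the other PAX6 probes carried the RefSeq record NM_000280. An exon annotation of hg19 was not used here. The sequences of 2 probes are shown, because they can be placed in the protein-coding part of their transcripts from what is known of these proteins and because their levels move together below. Each is written as the array carries it, in lower case.
PAX6 A_33_P3306267: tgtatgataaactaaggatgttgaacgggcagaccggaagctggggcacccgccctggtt
OTX2 A_23_P48663: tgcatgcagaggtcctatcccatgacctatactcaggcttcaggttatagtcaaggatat
The PAX6 sequence had 1 reading frame without a stop codon, from its base 3, and the OTX2 sequence had 1, from its base 1. OTX2's probe lay at chr14:57268756-57268815 on the minus strand. The remaining members lay at chr13:112725318-112725377 (SOX1) and chr13:100638017-100638076 (ZIC2) on the plus strand, and at chrX:139585248-139585306 (SOX3), chr5:134870063-134870122 (NEUROG1), chr4:113435022-113435081 (NEUROG2), chr2:182541244-182541303 (NEUROD1) and chr15:37183553-37183612 (MEIS2) on the minus strand.

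Levels are given as log2 of the scanner's processed signal minus the log2 of that array's 75th percentile, so a level of 0 is the 75th percentile of the array and each unit is a factor of 2. A probe has its own hybridisation efficiency, so levels of different probes were not ranked against each other. Across the 9 arrays the 75th percentile lay between 802 and 1590 signal units, and 65.7 to 73.6% of probes were well above background. They came from 2 slides. On slide 1 were mipafox A and all controls, and on slide 2 were all paraoxon arrays with the remaining mipafox arrays, B and C. Paraoxon and control thus shared no slide, and a difference between them cannot be told apart from a difference between slides except through the split mipafox arrays. The labels call the arrays of a treatment biological replicates whereas the study's text calls them technical, so the p-values measure the spread between these arrays, which may be technical. In bulk RNA, fewer cells of a type and less RNA per cell cannot be told apart.

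Most of the members were read well above background in all arrays. Probes of PAX6, SOX3, NEUROG1, NEUROG2, ZIC2 and MEIS2, 8 in all, were well above background on 9 of 9 arrays. OTX2 was so on 5 of 9, NEUROD1 and the upstream PAX6 probe on 2 of 9 each, and SOX1 on 1 of 9. The bright members had mean signals far above the local background of their spots. The ratio to background was 984 to 1342 for SOX3, 308 to 533 for PAX6 A_33_P3330149 and 161 to 319 for MEIS2. It was 14.0 to 33.8 for NEUROG2, 6.49 to 14.5 for ZIC2, 3.24 to 4.97 for NEUROG1 and 1.23 to 1.59 for OTX2. No spot of a member probe was saturated or marked as an outlier.

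**Figure D1:**
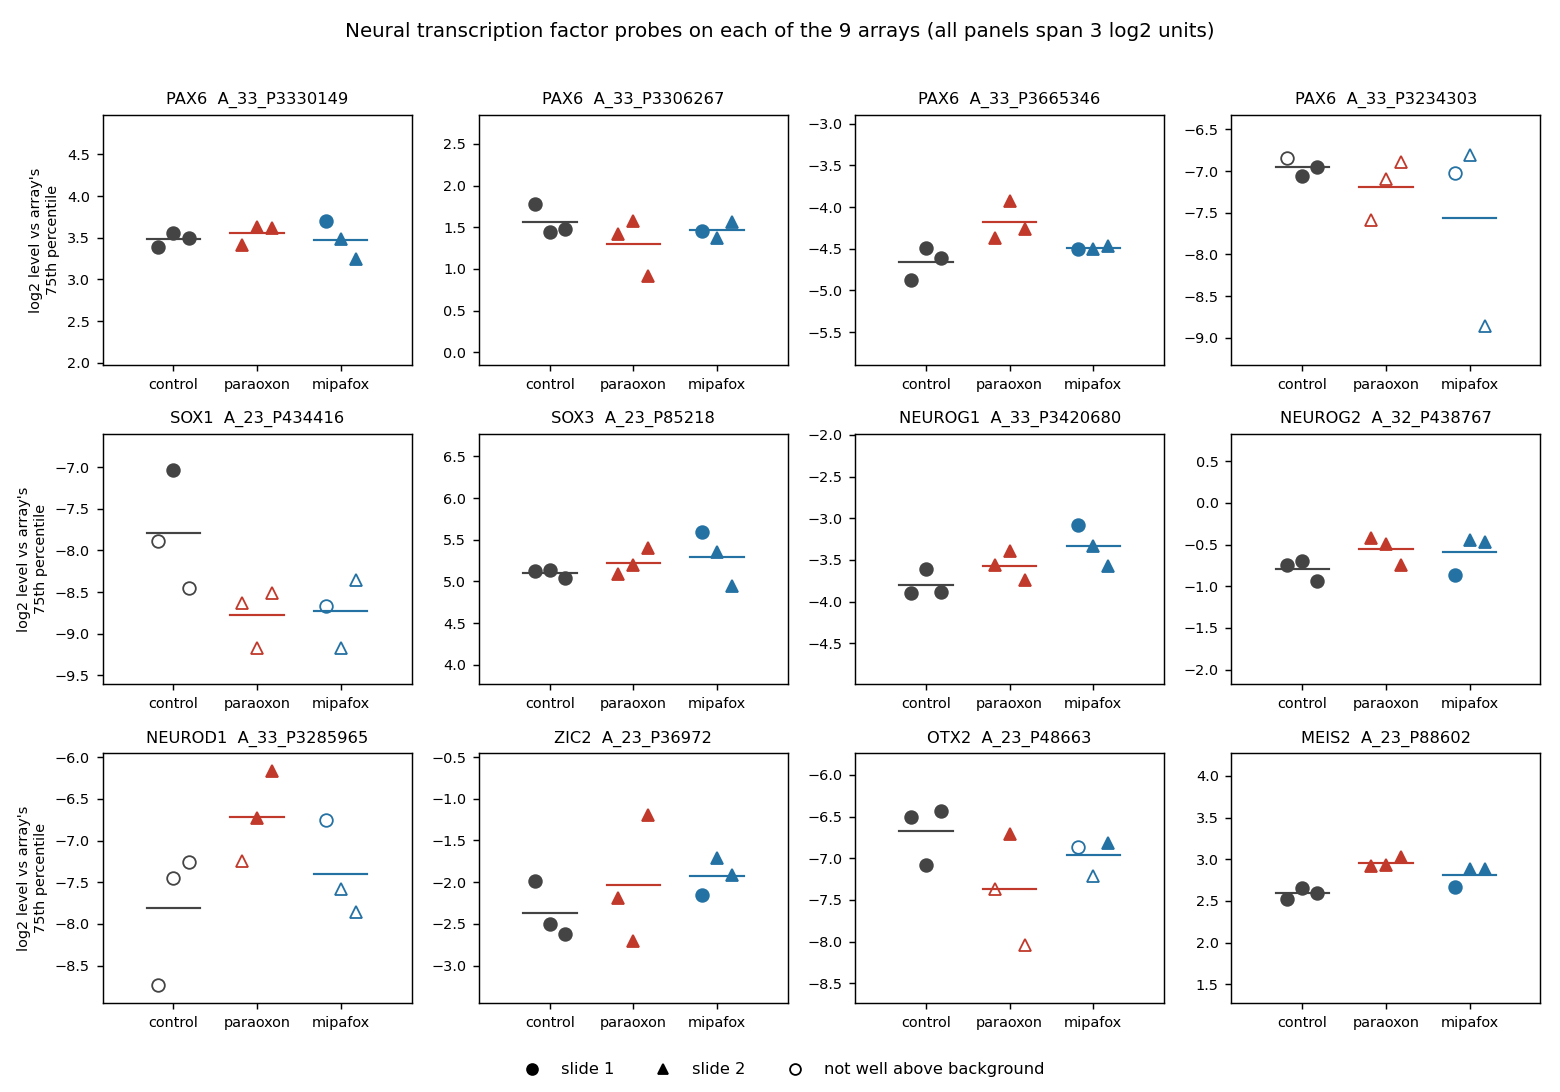
Level of each of the 12 member probes on the 9 arrays, as log2 of the processed signal relative to the array's 75th percentile (vertical axis), by treatment (horizontal axis). Each point is 1 array, circles are slide 1 and triangles slide 2, open symbols were not well above background, and lines are means of 3 arrays. For MEIS2 all slide 2 arrays lie above all slide 1 arrays, and SOX1 is filled on 1 array only.

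No member passed the study's limits, an adjusted p under 0.05 with a log2 fold change beyond 1 or -1, in any comparison. The normalization and filter used here were not those of the study, so the totals below are not the totals it reported. Paraoxon called 0 of the 9 tested member probes, against 0% of all tested probes (0 of 29134), and the same was true of mipafox, 0 of 9 against 0%, and of paraoxon set against mipafox, 0 of 9 against 0% (limma, Benjamini-Hochberg over all tested probes). At an unadjusted p under 0.05, 2 of 9 member probes differed between paraoxon and control, where 13.3% of all tested probes did. For mipafox against control it was 1 of 9 beside 6.96%, and for paraoxon against mipafox, whose doses differ, 0 of 9 beside 4.02%. The 9 members are too few for these shares to be set apart from those of all probes.

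The intervals show the size of difference that the arrays left room for, and they widened when the slide entered the fit. For 7 of the 9 tested probes the 95% interval of the log2 fold change lay wholly between -1 and 1 in the paraoxon comparison, and the same number did in the mipafox comparison. The exceptions were ZIC2 and OTX2 in both. With the slide as a block only 3 of 9 intervals stayed within these limits for paraoxon (PAX6 A_33_P3330149, NEUROG2 and MEIS2) and 6 of 9 for mipafox. Among the tested probes the largest differences were -0.70 for paraoxon (OTX2) and 0.47 for mipafox (NEUROG1) on the log2 scale. OTX2 passed the filter only through the control arrays, and its paraoxon estimate was -0.02 with normexp background correction. It is counted among the intervals above and in the medians here. The median over the 9 member probes was 0.23 for paraoxon, with 7 probes above 0 and 2 below, while the median over all tested probes was 0.01 with 51.9% above 0. The paraoxon median was 0.04 without paraoxon C, 0.15 without paraoxon B and 0.16 with the slide as a block. For mipafox it was 0.20, with 6 above and 3 below, beside 0.00 and 50.2% for all tested probes. Both comparisons use the same 3 control arrays, and 3 of the 9 probes are PAX6 probes.

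**Figure D2:**
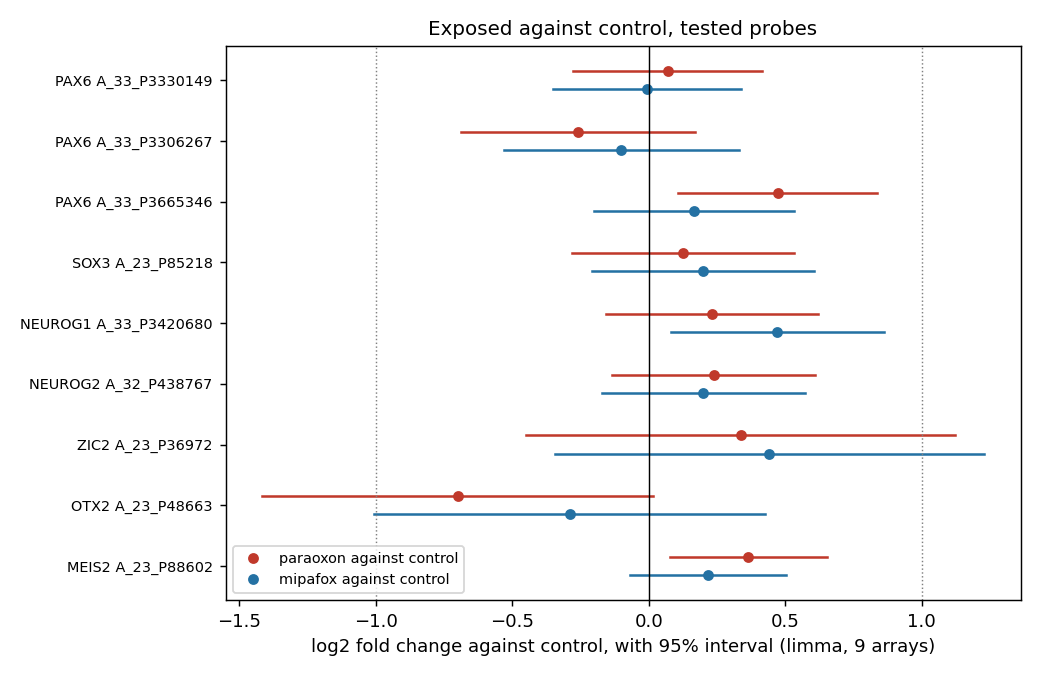
Log2 fold change against control (horizontal axis) of the 9 tested member probes (rows), paraoxon in red and mipafox in blue, with 95% intervals from limma over 9 arrays. Dotted lines mark the fold limit of 1 and -1, and the intervals of OTX2 and ZIC2 reach beyond it.

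PAX6, the paired-box factor of eye, forebrain and spinal cord progenitors, was read above the 75th percentile of every array by its brightest probe, with no detectable difference between treatments. A_33_P3330149 stood at 3.39, 3.56 and 3.50 in the control arrays A, B and C, at 3.41, 3.63 and 3.62 with paraoxon and at 3.70, 3.49 and 3.25 with mipafox. The highest and the lowest of the 9 values were both mipafox arrays, A and C, and the treatments overlapped. The log2 fold change was 0.07 for paraoxon (SE 0.15, adjusted p = 0.907, limma) and -0.01 for mipafox (SE 0.15, adjusted p = 0.998, limma). The paraoxon interval ran from 0.826-fold to 1.33-fold and the mipafox interval from 0.783-fold to 1.26-fold. With the slide as a block the paraoxon estimate was 0.40 (SE 0.24) and the mipafox estimate 0.215 (SE 0.19).

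The other PAX6 probes gave differing directions. A_33_P3306267, the coding probe printed above, stood at 1.78, 1.44 and 1.47 in control, 1.42, 1.57 and 0.91 with paraoxon and 1.46, 1.37 and 1.56 with mipafox. Paraoxon C alone was below 1, and the groups overlapped, with a log2 fold change of -0.26 (SE 0.19, adjusted p = 0.627, limma) for paraoxon and -0.10 for mipafox.

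A_33_P3665346, the most downstream PAX6 probe, was dim, at 2.24 to 3.60 times background. It stood at -4.87, -4.49 and -4.61 in control, -4.37, -3.92 and -4.26 with paraoxon and -4.50, -4.51 and -4.46 with mipafox. All paraoxon arrays lay above all control arrays, as was so for MEIS2 too, 2 of 9 members, beside 23.4% of all tested probes whose paraoxon and control arrays did not overlap in either direction. The log2 fold change was 0.47 (SE 0.16, adjusted p = 0.249, limma), 1 of 2 members at an unadjusted p under 0.05, and with the slide as a block 0.46 (SE 0.30, adjusted p = 0.655, limma). The mipafox arrays, of both slides, spanned only -4.51 to -4.46, and mipafox B and C differed from mipafox A by 0.01. The upstream probe A_33_P3234303 was well above background on control B and C only and on 0 of 3 arrays of each exposed group, with levels of -7.06 to -6.84 in control, -7.59 to -6.89 with paraoxon and -8.85 to -6.80 with mipafox. The levels overlapped, and the adjusted p without a filter on dim probes was 0.88 for paraoxon and 0.798 for mipafox (limma). The PAX6 probes thus did not move as 1, and the brightest gave the estimate nearest 0 only without the slide in the fit. With the slide as a block A_33_P3306267 was nearest 0 among the tested PAX6 probes, at -0.268 for paraoxon and -0.105 for mipafox.

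SOX3, the X-linked SOXB1 factor of neural progenitors, was read far above the 75th percentile of every array. Its levels were 5.13, 5.13 and 5.04 in control, 5.08, 5.19 and 5.40 with paraoxon and 5.59, 5.36 and 4.94 with mipafox. The control arrays lay close together (SD 0.05), and mipafox held both the highest array, A, and the lowest, C. The log2 fold change was 0.13 for paraoxon (SE 0.18, adjusted p = 0.837, limma) and 0.20 for mipafox (SE 0.18, adjusted p = 0.913, limma). The estimate for mipafox was 0.05 without mipafox A and 0.38 without mipafox C, and that for paraoxon 0.04 without paraoxon C. With the slide as a block the estimates were 0.57 (adjusted p = 0.617, limma) and 0.50 (adjusted p = 0.85, limma), where mipafox A alone stands for mipafox on slide 1.

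SOX1, the SOXB1 member that marks committed neuroectoderm, was at or near background. It was well above background on control B only (-7.03), with the other control arrays at -7.89 and -8.45. The paraoxon arrays read -8.63, -9.18 and -8.51 and the mipafox arrays -8.67, -9.17 and -8.35. The paraoxon arrays lay below the control arrays and the mipafox arrays overlapped them, but 8 of these 9 values were not well above background and their order carries no weight. A fit without a filter on dim probes gave log2 fold changes of -0.98 for paraoxon and -0.94 for mipafox (adjusted p = 0.402 and 0.76, limma).

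NEUROG1, a proneural factor that commits progenitors to the sensory and cortical neuronal lineages, was read dimly but on every array. Its levels were -3.90, -3.61 and -3.89 in control, -3.56, -3.39 and -3.74 with paraoxon and -3.08, -3.33 and -3.57 with mipafox. All mipafox arrays lay above all control arrays, here and for MEIS2, 2 of 9 members, beside 11.8% of all tested probes whose mipafox and control arrays did not overlap in either direction. The paraoxon arrays overlapped the control arrays. The log2 fold change was 0.47 for mipafox (SE 0.17, adjusted p = 0.618, limma, the member at an unadjusted p under 0.05) and 0.23 for paraoxon (SE 0.17, adjusted p = 0.631, limma). Mipafox A, on the slide of the controls, was 0.72 above the control mean, and with the slide as a block the mipafox estimate was also 0.72 (adjusted p = 0.761, limma). Mipafox B and C together were 0.37 below mipafox A.

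NEUROG2, the partner proneural factor of cortex, spinal cord and retina, was read a little below the 75th percentile of each array. It stood at -0.74, -0.70 and -0.93 in control, -0.42, -0.50 and -0.74 with paraoxon and -0.86, -0.44 and -0.47 with mipafox. Of the 5 slide 2 arrays, 4 were above every slide 1 array, and paraoxon C fell among the controls. The log2 fold change was 0.24 for paraoxon (SE 0.17, adjusted p = 0.603, limma) and 0.20 for mipafox (SE 0.17, adjusted p = 0.896, limma). Mipafox B and C lay 0.40 above mipafox A, and with the slide as a block the estimates turned to -0.17 and -0.07. Whether the slide or the treatment set these values cannot be told apart for paraoxon.

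NEUROD1, which acts after the neurogenins in newly formed neurons, was at the edge of detection. Its control arrays read -8.73, -7.45 and -7.26, the paraoxon arrays -7.24, -6.73 and -6.17 and the mipafox arrays -6.76, -7.58 and -7.85. The paraoxon arrays lay above the control arrays and the mipafox arrays overlapped them. Only paraoxon B and C were well above background, so this order carries no weight. Mipafox A, at nearly the level of paraoxon B, was not well above background. A fit without a filter on dim probes gave a log2 fold change of 1.098 (SE 0.46, adjusted p = 0.434, limma, 42404 probes), and 0.42 for mipafox (adjusted p = 0.862, limma). The 2 spots of this probe differed from each other on an array by a median of 0.36 and by up to 1.33 on the log2 scale. The part of this spread between spots in the paraoxon difference was not tested.

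ZIC2, a zinc-finger factor of the dorsal neural tube and forebrain, varied more between arrays of 1 treatment than most probes. Its levels were -1.98, -2.50 and -2.62 in control, -2.19, -2.71 and -1.20 with paraoxon and -2.15, -1.71 and -1.91 with mipafox. Paraoxon held both the highest array, C, and the lowest, B. The pooled SD within treatments was 0.50, above that of 89.4% of tested probes, although its duplicate spots differed by a median of only 0.07. The log2 fold change was 0.34 for paraoxon (SE 0.35, adjusted p = 0.761, limma) and 0.44 for mipafox (SE 0.35, adjusted p = 0.883, limma). Without paraoxon C the paraoxon estimate was -0.08, and with the slide as a block it was -0.01, so no direction can be given for paraoxon.

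OTX2, the head-organising homeodomain factor of forebrain and midbrain, passed the filter only through the control arrays, all 3 of which were well above background against 1 of 3 in each exposed group. Such a probe is selected for being high in control, and its estimates are given as a description. Its levels were -6.51, -7.08 and -6.43 in control, -7.37, -6.71 and -8.04 with paraoxon and -6.86, -7.21 and -6.82 with mipafox. The groups overlapped, and paraoxon C was the lowest. The log2 fold change was -0.70 for paraoxon (SE 0.32, adjusted p = 0.388, limma) and -0.29 for mipafox (SE 0.32, adjusted p = 0.936, limma). The paraoxon estimate was -0.02 with normexp background correction and -0.05 with the authors' processed values, -0.37 without paraoxon C and -1.03 without paraoxon B. The 2 spots of the probe differed by a median of 0.70 on an array, the same size as the paraoxon estimate from all 9 arrays. Across the 9 arrays its level went with that of the PAX6 probe A_33_P3306267 (Pearson r = 0.888, a description over arrays that share slide and treatment), and both were lowest on paraoxon C, the array with the smallest share of probes well above background (65.7%). The part of that share in these values was not tested.

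MEIS2, the TALE homeodomain factor, showed the least spread within treatments of the tested members, and its arrays separated both by slide and by exposure. Its levels were 2.52, 2.66 and 2.60 in control, 2.92, 2.93 and 3.02 with paraoxon and 2.67, 2.88 and 2.88 with mipafox. Every exposed array lay above every control array, but mipafox A, the exposed array on the slide of the controls, was only just above control B. The pooled SD within treatments was 0.09, above that of only 2.0% of tested probes.

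The paraoxon difference of MEIS2 was 0.37 on the log2 scale, or 1.29-fold (SE 0.13, 95% interval 1.06 to 1.57-fold, adjusted p = 0.254, limma), and it was the other member at an unadjusted p under 0.05. For mipafox it was 0.22, or 1.16-fold (adjusted p = 0.821, limma). With normexp background correction the values were 0.23 and 0.10. The 5 arrays of slide 2 (2.88 to 3.02) did not overlap the 4 of slide 1 (2.52 to 2.67), which was so for 9.78% of all tested probes, in either direction. Within slides the differences were small. Mipafox A was 0.08 above the control mean on slide 1, and paraoxon was 0.08 above mipafox B and C on slide 2. Mipafox B and C were 0.21 above mipafox A, arrays of the same treatment. Whether the slide or the treatment set the paraoxon difference cannot be told apart. With the slide as a block the paraoxon estimate was 0.16 (SE 0.20, adjusted p = 0.806, limma) and the mipafox estimate 0.08 (SE 0.16, adjusted p = 0.925, limma).

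**Figure D3:**
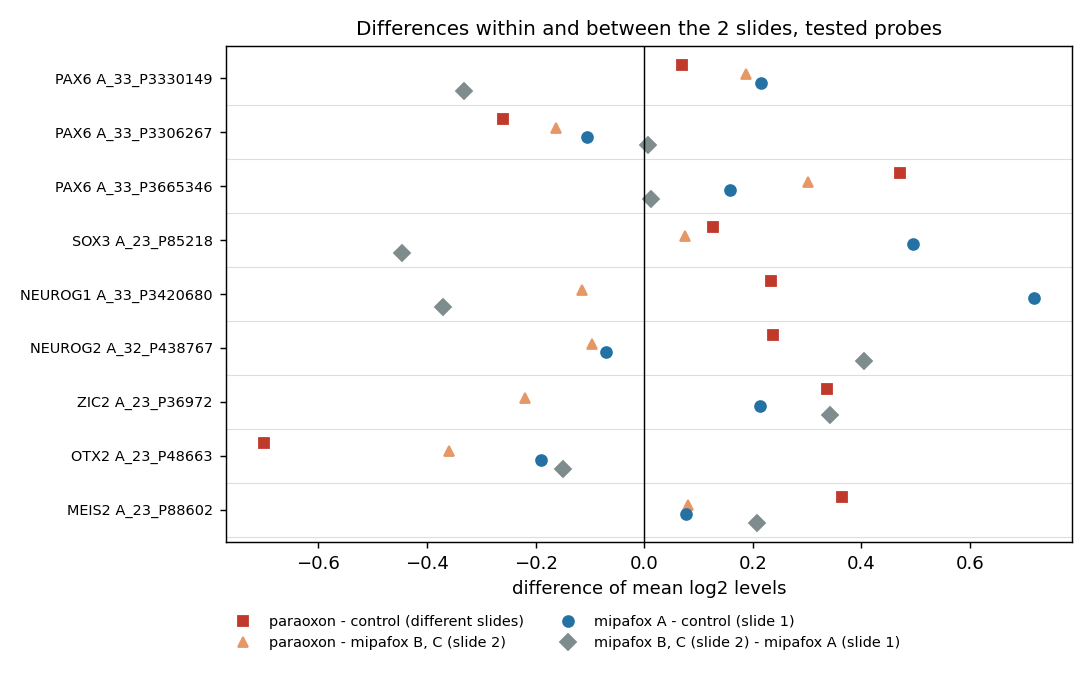
Differences of mean log2 levels (horizontal axis) of the 9 tested member probes (rows), between treatments on different slides (squares), between paraoxon and mipafox B and C on slide 2 (triangles), between mipafox A and control on slide 1 (circles), and between mipafox arrays of the 2 slides (diamonds). For MEIS2 the square lies at 0.37 while the triangle and circle lie at 0.08. For NEUROG1 the circle, 1 array against 3, lies at 0.72.

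Setting each array against the control mean placed the members side by side. On paraoxon C, ZIC2 was 1.17 above its control mean, OTX2 1.37 below and PAX6 A_33_P3306267 0.65 below, the largest deviations of these probes. Mipafox A held the largest deviations of NEUROG1 (0.72), SOX3 (0.50) and was 0.21 above control for PAX6 A_33_P3330149. The SOX3 and bright PAX6 probes moved together over the 9 arrays (Pearson r = 0.774), as did the downstream PAX6 probe and MEIS2 (r = 0.764) and NEUROG2 and MEIS2 (r = 0.649). Other pairs moved in opposite directions, among them OTX2 with MEIS2 (r = -0.716) and OTX2 with ZIC2 (r = -0.708). The tested PAX6 probes correlated with each other at -0.41, 0.419 and -0.373. These are descriptions over 9 arrays that share slides and treatments. A median deviation per array was taken over the 7 tested genes, each by its brightest tested probe. It was -0.06 to 0.07 on the control arrays, 0.13 to 0.18 with paraoxon and 0.21 to 0.28 with mipafox, computed against those same control arrays. This set leaves out the other PAX6 probes, so these medians are not those of the 9 tested probes given above.

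**Figure D4:**
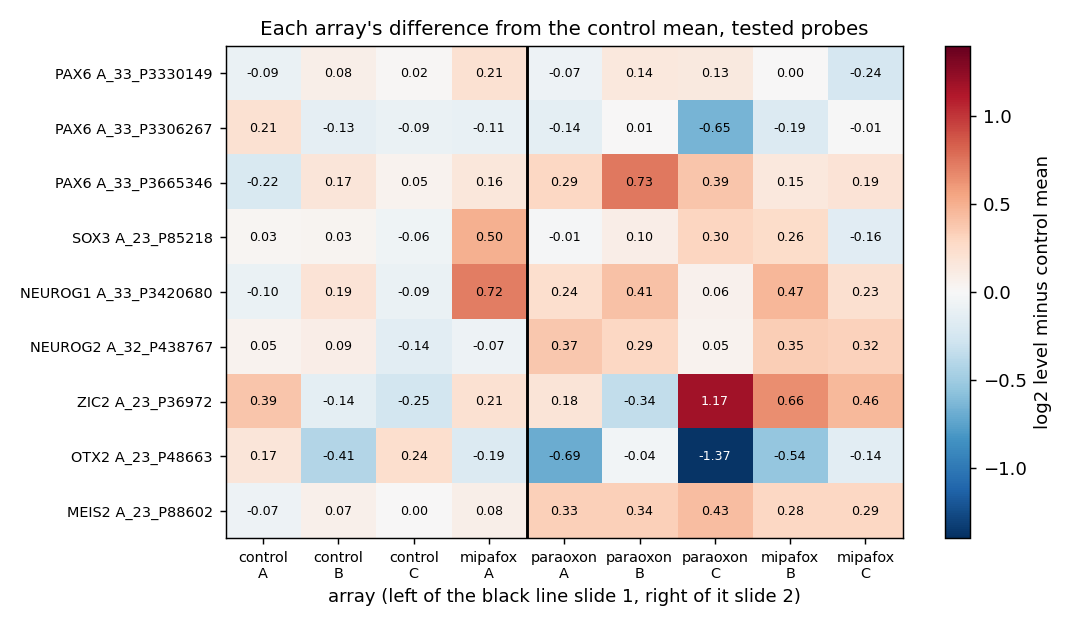
Log2 level of each tested member probe (rows) on each array (columns) minus its mean over the 3 control arrays, with the value printed in each cell and red for above. The black line divides slide 1 from slide 2. ZIC2 and OTX2 reach 1.17 and -1.37 on paraoxon C, and MEIS2 is 0.28 to 0.43 on all slide 2 arrays and 0.08 on mipafox A.

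Other genes were ranked by how closely their probes followed each member. Over the 9 arrays and 29100 probes, the 2 highest Pearson correlations were with CBX1 (0.979) and GNAI3 (0.974) for PAX6, IQGAP1 (0.974) and TSR1 (0.966) for SOX3, and PDE2A (0.95) and RBM5 (0.94) for NEUROG1. For NEUROG2 they were PVR (0.973) and SLIT1 (0.951), for ZIC2 MYH9 (0.985) and C7orf41 (0.974), for OTX2 DHDDS (0.972) and GATS (0.966), and for MEIS2 SET (0.979) and STC2 (0.978). With so many probes and so few arrays, correlations of this height are the top of a long list and nothing is read from them. Of 8278 probes for long intergenic RNAs, 0 lay within 50 kb of a member probe.

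Relatives of the members by gene family were read in the same fit. Of 35 such genes (PAX, SOXB, NEUROD, ATOH, OLIG, ZIC, OTX, MEIS, PBX and related genes), 28 had a tested probe, 0 were called with either compound and 0 had an unadjusted p under 0.05 (limma), beside 13.3% of all tested probes for paraoxon and 6.96% for mipafox. Their median log2 fold change was 0.07 for paraoxon and 0.05 for mipafox. Among the brightest was SOX2, the third SOXB1 gene, with log2 fold changes of 0.20 for paraoxon and 0.05 for mipafox.

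Among 49 other transcription factors of neural development, 38 had a tested probe and 0 were called. At an unadjusted p under 0.05, 4 differed with paraoxon and 5 with mipafox, and they are named here after their values were seen. With paraoxon the log2 fold change was -0.99 for POU3F3, a cortical POU factor, -0.85 for REST, the repressor of neuronal genes outside neurons, -0.90 for the forebrain factor SIX3 and 0.82 for RAX, a factor of the eye field (adjusted p = 0.113, 0.175, 0.322 and 0.113 in this order, limma). With mipafox it was -0.58 for POU3F3, -0.70 for REST, 0.45 for RAX, 0.33 for GBX2 and 0.37 for MYT1, with adjusted p of 0.6 to 0.697 (limma). These counts, 4 of 38 with paraoxon and 5 of 38 with mipafox, stand beside 13.3% and 6.96% of all tested probes. SIX3 was well above background on only 6 of 9 arrays, and the paraoxon and control arrays behind these values shared no slide. EN2, SALL4 and TCF3, the brightest of these genes, had log2 fold changes of 0.27, -0.11 and 0.05 for paraoxon.

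Markers of the cells these factors were measured in were read on the same arrays. All 13 embryonal carcinoma markers with a probe were well above background on 9 of 9 arrays, among them PODXL, POU5F1 and SOX2, so the defining genes of the labelled cell type were read on day 4. The mean deviation of these markers from their control means was 0.23 on mipafox A, the array where SOX3 and NEUROG1 were highest. It was -0.11 to 0.04 on the other 8 arrays. The part of this in the SOX3 and NEUROG1 values was not tested. Retinoic acid response genes were read in every treatment. Of the 12 tested, 9 were below control with paraoxon and 8 with mipafox, with median log2 fold changes of -0.09 and -0.01. Of all tested probes, 51.9% were above control with paraoxon and 50.2% with mipafox. The mean deviation of the list's genes from their control means was -0.215 to -0.134 on the paraoxon arrays, all on slide 2. Among the mipafox arrays it was -0.102 (B) and -0.141 (C) on slide 2 and -0.004 (A) on slide 1. It was -0.005 to 0.008 on the control arrays, which define those means and lie on slide 1. For paraoxon, slide and treatment cannot be told apart here. The part of this deviation in the values of the neural factors was not tested. The log2 fold changes with paraoxon of CRABP2 and CYP26A1, among the brightest, were -0.06 and -0.02. HOXB1 and HOXA5, named after their values were seen, had log2 fold changes of -0.84 and -0.57 with paraoxon (adjusted p = 0.206 and 0.12, limma) and -0.66 and -0.37 with mipafox.

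Progenitor markers and most neuronal markers were read too. All 7 progenitor markers and 8 of 11 neuronal markers were well above background on every array, the brightest being VIM, NES and CDH2 and TUBB3, MAP2 and NEFL. The other neuronal markers were so on fewer arrays, SYP on 6 of 9, ELAVL3 on 4 of 9 and STMN2 on 2 of 9. ELAVL3 and STMN2 were not tested. The medians of both lists lay between -0.13 and 0.11 in either exposed comparison, and no gene of either list was called. VIM with -0.36 and RBFOX3 with 0.40, both for mipafox, were the only ones at an unadjusted p under 0.05 (adjusted p = 0.651 and 0.626, limma). Of 6 glial markers 3 were tested, among them MBP and S100B, and GFAP was well above background on 0 of 9 arrays. Of 7 mesoderm markers 4 were tested, with T, EOMES and HAND1 never well above background. Of 7 endoderm markers 3 were tested (CXCR4, GATA6 and FOXA2), with TTR never well above background. Of 6 markers of trophectoderm and surface ectoderm 3 were tested, with KRT5 never well above background. None of these 4 lists held a gene with an unadjusted p under 0.05 in either exposed comparison.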

How the data were processed

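The deposited scanner files held intensity values per spot, made with Agilent Feature Extraction 10.5.1.1 per the file headers, with flags for spots above background and outliers. The authors also deposited log2 values of 29527 probes, used as an alternative only. The probe coordinates (hg19), accessions, symbols and sequences were those of the scanner files. The processed signal was taken to log2, each array's 75th percentile over non-control spots was subtracted, outlier spots were left out and spots of 1 probe were averaged. Probes well above background on all 3 arrays of at least 1 treatment were tested (29134 of 42405). A probe counted as above background where at least a share of 0.5 of its spots did.

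One mean per treatment was fitted over all 9 arrays with limma 3.58.1 (R 4.3.3), with Benjamini-Hochberg adjustment over all tested probes and limits of 0.05 and a log2 fold change of 1. The fit was tested on simulated data. Figures were drawn with matplotlib 3.10.9. The slide was read from the names of the scanner files. Alternatives were normexp with an offset of 50, quantile normalization, the authors' values, other filters, slide and array letter as blocks, array weights, 1 slide or 2 treatments only, kept outlier spots and leaving out each array. The number of arrays limits the precision.

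All member probes were named. From each further list the 3 brightest genes were named whatever their change, except a few that are not reported here, and from the correlations the 2 highest for each member. The members and lists were chosen with earlier results of these data known.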

Additional observations from a re-analysis of the deposited data

How the results depend on the processing

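Member probes called stayed at 0 in all 59 pairings of a comparison with an alternative, the replicate block included (0 called), while calls over all tested probes rose to 671 for paraoxon and 800 for mipafox with array weights and to 276 for paraoxon when only paraoxon and control were fitted. The paraoxon count over all probes also rose to 276 without mipafox A, 93 without mipafox B and 1 without mipafox C, the mipafox count to 76 without mipafox A, and with the slide as a block they were 1 and 6. With array weights the adjusted p was 0.0329 for MEIS2 with paraoxon (log2 fold change 0.30) and 0.0483 for NEUROG1 (0.38) and 0.0351 for ZIC2 (0.73) with mipafox, none beyond the fold limit. These were their lowest adjusted p over the alternatives. The cause was not tested.

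The member median for paraoxon against control moved from 0.23 to 0.157 with the slide as a block, to 0.153 with array weights, and to between 0.041 (without paraoxon C) and 0.269 when 1 array was left out. The median of paraoxon against mipafox, -0.07, became 0.017 with the authors' values and lay between -0.098 and 0.035 when 1 array was left out. The other 50 medians moved by less than 0.065, the SD over the control arrays of the median of the 7 tested genes, each by its brightest tested probe. Of 271 fold changes under an alternative, 14 changed sign. With the slide as a block these were NEUROG2 (-0.167) and ZIC2 (-0.006) for paraoxon, and NEUROG2 (-0.071) and PAX6 A_33_P3330149 (0.215) for mipafox, the latter pair with the same values on slide 1 only. PAX6 also turned to -0.068 for paraoxon with array weights, and for mipafox to 0.008 with normexp, 0.019 with the authors' values and between -0.118 and 0.108 when 1 array was left out. OTX2 for mipafox turned to 0.099 with normexp, and ZIC2 for paraoxon lay between -0.081 and 0.675 when 1 array was left out. OTX2 has no value where a probe had to be above background on all 9 arrays. Same-letter correlations of deviations were 0.173, 0.116 and -0.451 for control with paraoxon, 0.262, -0.069 and 0.567 for control with mipafox, and 0.236, -0.597 and -0.43 for paraoxon with mipafox. Different-letter correlations ran from -0.587 (control A with paraoxon B) to 0.661 (paraoxon B with mipafox C). No pairing by letter was visible in these values, and its absence was not tested. Signal near background limits SOX1, NEUROD1, OTX2 and the upstream PAX6 probe.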
